A study of Homo sapiens and Mus musculus with 10 samples.

Results

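The GATA transcription factor family has 6 genes, GATA1 to GATA6, and all 6 were followed here in human lines and, under the same names, in mouse cells. They were taken by name from the gene models, as 6 of 19962 human and 6 of 21728 mouse protein-coding genes on the autosomes and X. For each gene the features read were of the following kinds: peaks within 1 kb of any of its annotated start sites, called promoter peaks, and all peaks in the gene body or within 100 kb on either side of it.

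GATA factors bind DNA through zinc fingers that recognise a short sequence with the letters GATA at its core. GATA1, GATA2 and GATA3 are known mainly from blood: GATA1 drives red cell and platelet precursors, GATA2 keeps blood stem and progenitor cells, and GATA3 directs T cell and several epithelial fates. GATA4, GATA5 and GATA6 are known mainly from heart, gut and other tissues of mesoderm and endoderm.

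The data are bulk ATAC-seq peak lists, which mark DNA that the Tn5 transposase could enter, from 10 libraries of 5 cell lines with 2 replicates each. GM12878 is a B-lymphoblastoid line, HEK293T an embryonic kidney line with the SV40 large T antigen, HFF1 a line of foreskin fibroblasts and K562 an erythroleukaemia line. The mESC are mouse embryonic stem cells that were grown on no feeder layer, with leukaemia inhibitory factor. No line had a treatment or an engineered allele in the labels, every library came from cells that had been frozen, and nothing says that replicates were separate cultures, so p-values measure only the spread between these libraries, which may be technical. Each group is 1 line, so a difference between lines is not a difference between tissues. No RNA was measured, and a promoter peak is not a measurement of expression.

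The libraries differed in depth. The lists held 52137 to 127359 peaks in the human libraries and 138349 and 142194 in the mESC libraries, on the autosomes and X. The genome-wide background level, recovered from the lists and used as a measure of depth between human libraries, was 0.465 and 0.466 reads per window in HEK293T, 1.71 and 1.73 in GM12878, 2.21 and 1.97 in K562 and 2.43 and 2.06 in HFF1. Of the peaks around the GATA genes, 75.5% to 95.2% were found again in the other replicate of the line. Among 5 marker genes fixed for each line, promoter peaks were called for all 5 in GM12878, HEK293T, HFF1 and mESC, and for 3 of 5 in K562, where the erythroid genes KLF1 and HBG1 had none in either library. The 5 genes fixed as markers of differentiated cells also had promoter peaks in mESC. Marker peaks were often shared: 2 of the 5 B cell genes were called in HEK293T, HFF1 and K562 as well.

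A promoter peak in both replicates was called in 17 of the 24 combinations of a human GATA gene and a human line. K562 had all 6 genes, GM12878 and HEK293T had 4 each, and HFF1 had 3. Over all protein-coding genes, a promoter peak was called for 70.4% in K562, 71.9% in GM12878, 67.8% in HEK293T and 76.2% in HFF1. In mESC all 6 genes were called, against 73.1% of mouse genes. GATA2, GATA3 and GATA6 were called in all 4 human lines, as were 11911 genes, 59.7% of those annotated. GATA1 and GATA5 were called in K562 alone, a pattern of 335 genes or 1.68%. GATA4 was called in GM12878, HEK293T and K562 and had no peak in either HFF1 library, and 114 genes or 0.571% were called in just those 3 lines. The count of 17 fell to 7 with the start of the gene record alone, where GATA2 and GATA4 had no call, and to 2 among the 20000 strongest peaks of each library, where the mouse count fell from 6 to 1. With the reads of every human library scaled to the depth of HEK293T, 12 of the 24 combinations remained. These were GATA3 in 4 lines, GATA2 and GATA6 in HEK293T, HFF1 and K562, GATA4 in HEK293T and GATA5 in K562. GATA1 was called in no line. Scaling also shortened the whole lists, from 78601 to 40803 peaks in K562 replicate 1 and from 127359 to 65474 in HFF1 replicate 1. The share of all genes still called under these other settings was not counted. The K562 libraries did not both keep a GATA1 promoter peak at HEK293T depth, so depth limits what the missing HEK293T call can show.

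GATA1, the master regulator of the erythroid lineage, lies at chrX:48786540-48794311 on the plus strand (hg38; its gene record and start sites are from GENCODE release 44). Its promoter carried 2 peaks in each K562 library and none in the other 6 human libraries. The summit nearest the start was 12 bp upstream of the 5′ end of the gene in replicate 1 and 36 bp upstream in replicate 2, and the other was 564 and 518 bp upstream. The fold over local background, which is the authors' value, was 4.08 and 3.93 for the 2 peaks in replicate 1 and 4.15 and 4.71 in replicate 2. These were weak peaks: by −log10 p of the strongest, GATA1 ranked at percentiles 9.75 and 11.6 of genes with a promoter peak in the 2 libraries. In mESC, Gata1 had 1 promoter peak of 20 and 17 reads at the summit, at percentiles 3.35 and 2.19.

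The surroundings of GATA1 showed the same division. Replicates 1 and 2 had 21 and 17 peaks within 100 kb in K562, 5 and 7 in GM12878, 7 and 6 in HEK293T and 8 and 9 in HFF1. Both K562 libraries lay above the other 6, which was so for 6.38% of 19598 genes tested. In read density, the local background of the promoter peaks over that of the genome, the GATA1 start sites in K562 stood above 72.4% and 67.5% of genes. K562 held 14 called regions around GATA1, and in 8 of them no library of another human line had a peak, against 25.4% of all regions called in K562. At HEK293T depth 3 of the 8 were still called. The 4 regions called in every human line lay at SUV39H1, at HDAC6, at PQBP1 and 49022 bp upstream of GATA1. None of the 4 was at a start site of GATA1.

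Of the 8 regions called in K562 alone around GATA1, 3 had a short word with a GATA core at the summit, and their sequences are shown because they place GATA words beside a GATA gene. The words searched were AGATAA and AGATAG. Their variants with T first, TGATAA and TGATAG, also counted, each in either orientation and within 50 bases of the strongest summit. Such words were present at 39.0% of all regions called in K562 alone, so 3 of 8 was near the share over the genome. The region 3476 bp upstream of the gene (chrX:48782893-48783236, between genes) had folds of 6.91 and 8.35 and the highest summits of the 3, with 72 and 73 reads. An enhancer upstream of the GATA1 start is known to serve erythroid cells. The region 449 bp upstream (chrX:48785888-48786295) is the more distant of the promoter peaks above, with folds of 3.93 and 4.71, and the region 84348 bp upstream (chrX:48702041-48702344) lies in an intron of SUV39H1, with folds of 5.88 and 6.22. At HEK293T depth the regions 3476 and 84348 bp upstream were still called in both K562 libraries and the one 449 bp upstream was not. Capitals mark the words searched on the plus strand of hg38, at chrX:48782995-48783095, chrX:48785972-48786072 and chrX:48702155-48702255. In the first sequence they also mark a CANNTG word, the E-box bound by factors such as TAL1, which is marked only where it pairs with a GATA word at a distance of 7 to 9 bases.
GATA1, 3476 bp upstream: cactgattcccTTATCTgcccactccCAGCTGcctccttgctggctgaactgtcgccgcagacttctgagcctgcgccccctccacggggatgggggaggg
GATA1, 449 bp upstream: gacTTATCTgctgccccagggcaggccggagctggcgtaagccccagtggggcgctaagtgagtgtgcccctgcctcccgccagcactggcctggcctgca
GATA1, 84348 bp upstream: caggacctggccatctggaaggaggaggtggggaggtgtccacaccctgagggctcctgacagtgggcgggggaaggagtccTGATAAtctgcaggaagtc

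**Figure D1:**
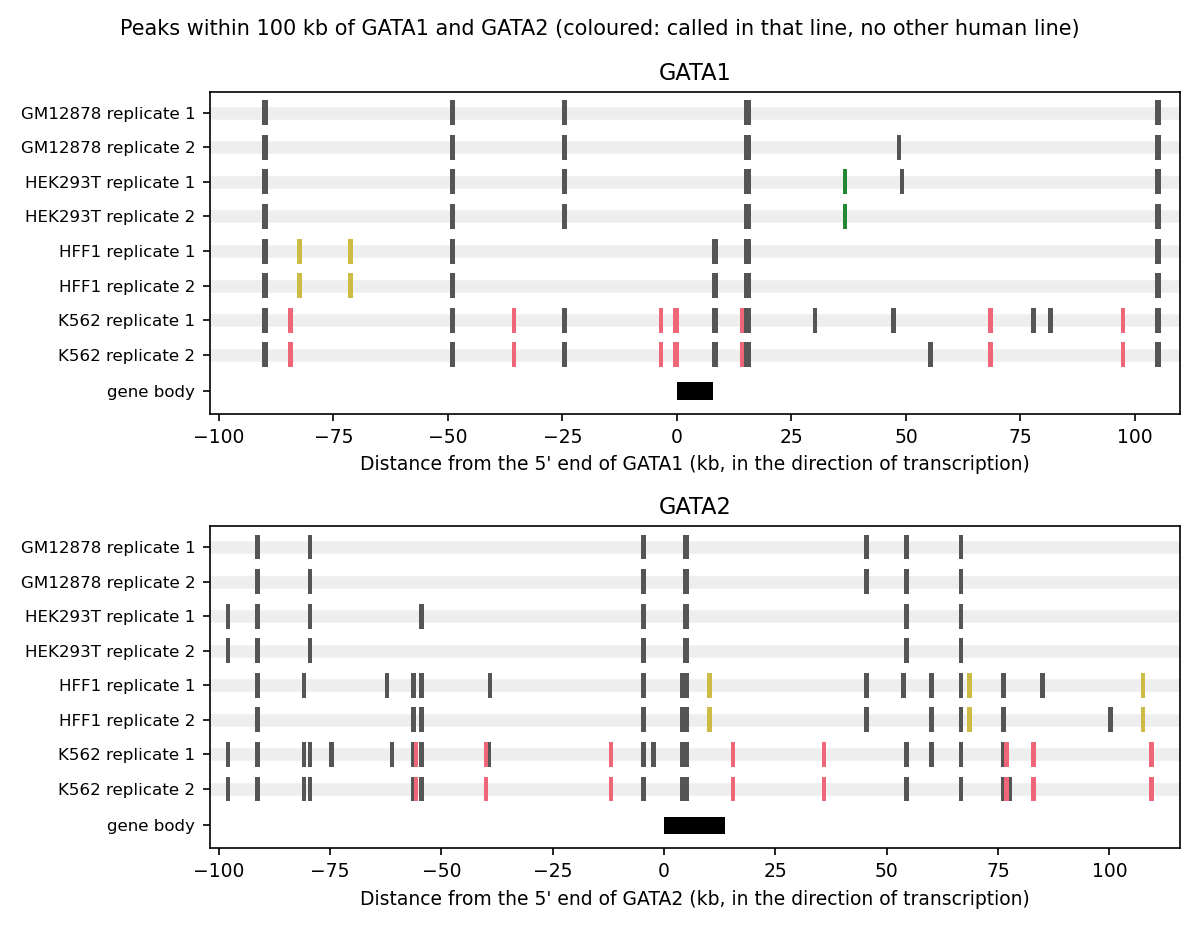
Peaks within 100 kb of GATA1 and GATA2, 1 row per human library, plotted by distance in kb from the 5′ end of the gene; coloured marks are regions called in both replicates of that line with no peak in any library of another human line, grey marks are all others, the black bar is the gene body, and marks are drawn at least 1 kb wide. K562 has 8 coloured regions around each gene, and the marks at the start of GATA1 appear in K562 rows alone.

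GATA2, which maintains blood stem and progenitor cells, lies at chr3:128479427-128493201 on the minus strand and has 10 annotated start sites spread over 11257 bp. No library had a peak within 1 kb of the most upstream of them. In all 8 human libraries a promoter peak instead had its summit within 70 bp of the start site 5285 bp further downstream. Its summit reached 94 and 83 reads in K562, 85 and 70 in HFF1, 33 and 31 in HEK293T and 27 and 21 in GM12878. In mESC, Gata2 had peaks at 3 groups of start sites, with 64 and 70 reads at the highest summit.

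The read density around the GATA2 start sites separated GM12878 from the other lines. Density here is the background that the peak caller used around a promoter peak, divided by the genome-wide background of the library. This adjusts for depth, but the median over genes still ran from 3.13 in HFF1 replicate 1 to 5.22 in GM12878 replicate 2. For each gene the highest value over its promoter peaks was taken, a measure chosen after the data were seen. It was 2.95 and 2.70 in GM12878, 7.58 ± 0.114 in HFF1 (SD, n = 2), 9.65 and 8.69 in HEK293T and 9.46 and 9.85 in K562. The GM12878 values lay below the other 6 libraries, and those of HEK293T and K562 overlapped. The share of all genes for which 1 line lay apart in this way was not counted. Within the libraries this placed GATA2 above 18.7% and 16.5% of genes with a promoter peak in GM12878, against 85.7% to 98.7% in the other 6. Between lines the density differed, with an adjusted p of 0.0245 in the exact permutation test over the pairings of 8 libraries, adjusted by Benjamini-Hochberg over 11911 genes, of which 92.1% passed. It ranked at 98.9% and 98.8% of genes in mESC.

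Around GATA2, K562 had 25 and 22 peaks within 100 kb, HFF1 18 and 14, HEK293T 9 and 9, and GM12878 7 and 7. Both K562 libraries lay above the other 6. Set against all genes in the same library, 90.3% and 86.7% of genes had fewer peaks than GATA2 in K562, but 13.7% and 13.3% did in GM12878. Of 20 regions called in K562, 8 had no peak in another human line, against 25.4% over the genome, and 4 of these 8 were still called at HEK293T depth. The only one of the 8 with a GATA word at the summit lay 76859 bp downstream of the 5′ end (chr3:128415980-128416704, between genes), with folds of 4.60 and 4.37.

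In HFF1 a peak lay in an intron of GATA2, 10218 bp downstream of the 5′ end and within 1 kb of another annotated start (chr3:128482610-128483357), with folds of 5.51 and 6.25, and no other human library had a peak there. The sequence is shown because this region and the one 3476 bp upstream of GATA1 were the only 2 of the 198 regions around the human GATA genes with an E-box and AGATAA spaced by 7 to 9 bases. Such a pair was found in 0.649% of all 243200 human regions, in 3.28% of those called in K562 alone and in 0.424% of those called in HFF1 alone, searched over the whole region on both strands; this search was added after the data were seen. The pair lies 289 bp from the strongest summit and at the edge of the peak, near where the list of HFF1 replicate 2 ends it. An enhancer with such a pair is known in an intron of GATA2 from blood stem cells and endothelium, yet neither K562 library had a peak there. The minus strand of chr3:128483271-128483371 is printed first and that of chr3:128416037-128416137 second. Capitals mark GATA words and, in the first alone, the E-box of the pair.
GATA2, 10218 bp downstream, HFF1: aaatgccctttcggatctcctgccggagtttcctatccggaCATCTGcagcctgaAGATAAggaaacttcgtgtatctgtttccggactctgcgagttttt
GATA2, 76859 bp downstream, K562: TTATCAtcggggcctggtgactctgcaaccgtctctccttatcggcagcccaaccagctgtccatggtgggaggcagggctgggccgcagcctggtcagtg

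GATA3, needed for T cell development, lies at chr10:8045378-8075198 on the plus strand. Which of its 5 start sites had a peak differed between lines, with each promoter peak counted at the start nearest its summit. The start 8226 bp downstream of the 5′ end had a peak in all 8 human libraries, with folds of 9.06 and 8.55 in K562, 6.67 and 7.39 in GM12878, 5.69 and 5.09 in HFF1 and 3.89 and 5.06 in HEK293T. The first start site had a peak in both HEK293T libraries, with 21 and 25 reads at the summit, and in GM12878 replicate 2, with 18 reads. The start 9310 bp downstream had peaks in both libraries of HEK293T, with 41 and 41 reads, and of GM12878, with 50 and 49 reads, and in none of HFF1 or K562. At the start 9432 bp downstream (chr10:8054810) peaks were counted in GM12878 alone, with 50 and 50 reads at the highest summit of each library. Those summits lay 1007 and 878 bp from that start, and neither peak covered it. The HEK293T peaks counted at the start 9310 bp downstream (chr10:8054338-8054896 and chr10:8054322-8054901) did cover it. By this nearest start, K562 and HFF1 were called at 1 of these sites, and HEK293T and GM12878 at 3 each. This tally rests on the nearest summit and not on which starts a peak covers.

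The fold compares a peak with its own surroundings, and the read density gave another order. The density around the GATA3 start sites was 16.7 and 16.7 times the genome-wide background in HEK293T, 8.09 and 8.14 in GM12878, 3.71 and 3.71 in HFF1 and 1.85 and 1.99 in K562. No line overlapped another, and the share of all genes for which this held was not counted. HEK293T thus lay above 98.7% and 98.7% of genes with a promoter peak, and K562, with the highest folds, above 15.9% and 17.1%. The summit itself, also over the genome-wide background, stood at 88.2 and 92.3 in HEK293T, 56.1 and 61.2 in GM12878, 21.9 ± 1.52 in HFF1 (SD, n = 2) and 20.4 and 20.8 in K562. Both measures differed between lines in the exact permutation test, with an adjusted p of 0.0148 for density and 0.0171 for the summit. So did 92.1% and 84.8% of genes. The median summit over genes with a promoter peak also differed. It was 73.1 and 70.8 in HEK293T, 61.3 and 61.8 in GM12878, 34.1 and 35.9 in HFF1 and 39.0 and 40.7 in K562.

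The promoter at the start shared by all lines is shown because it was called in every line. It is the RefSeq promoter of GRCh38.p14, ended just before the start 8226 bp downstream (chr10:8053391-8053603, plus strand). No GATA word was found in it, and 22.3% of 35116 RefSeq promoters had such a word in the 250 bases before the start. Capitals mark CCAAT words, 1 on each strand, and 32.0% of 35116 RefSeq promoters had such a word on either strand in the 250 bases before the start; CCAAT was searched after the sequence had been seen.
GATA3 promoter: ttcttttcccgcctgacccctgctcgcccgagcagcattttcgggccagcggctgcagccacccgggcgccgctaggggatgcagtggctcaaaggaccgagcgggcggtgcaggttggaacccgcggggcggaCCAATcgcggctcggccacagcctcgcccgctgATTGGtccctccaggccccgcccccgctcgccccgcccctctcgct

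Within 100 kb of GATA3, GM12878 had the most peaks, with 16 and 15 in its 2 libraries against 11 and 8 in HFF1, 7 and 6 in HEK293T and 7 and 7 in K562. Both GM12878 libraries lay above the other 6, as was so for 20.4% of genes. In GM12878, 7 of 12 called regions had no peak in another human line, against 40.6% over the genome, and 5 of those 7 lay inside the gene, with folds of 3.14 to 5.15. The other 2 lay between genes, 57679 bp downstream with folds of 10.6 and 10.5 and 86027 bp downstream with 8.53 and 7.57. At HEK293T depth these 2 and the region 10406 bp downstream were still called. K562 had 4 regions of its own around GATA3, and 3 of them lay in introns of TAF3, the upstream neighbour. None of these 4 was called at HEK293T depth.

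**Figure D2:**
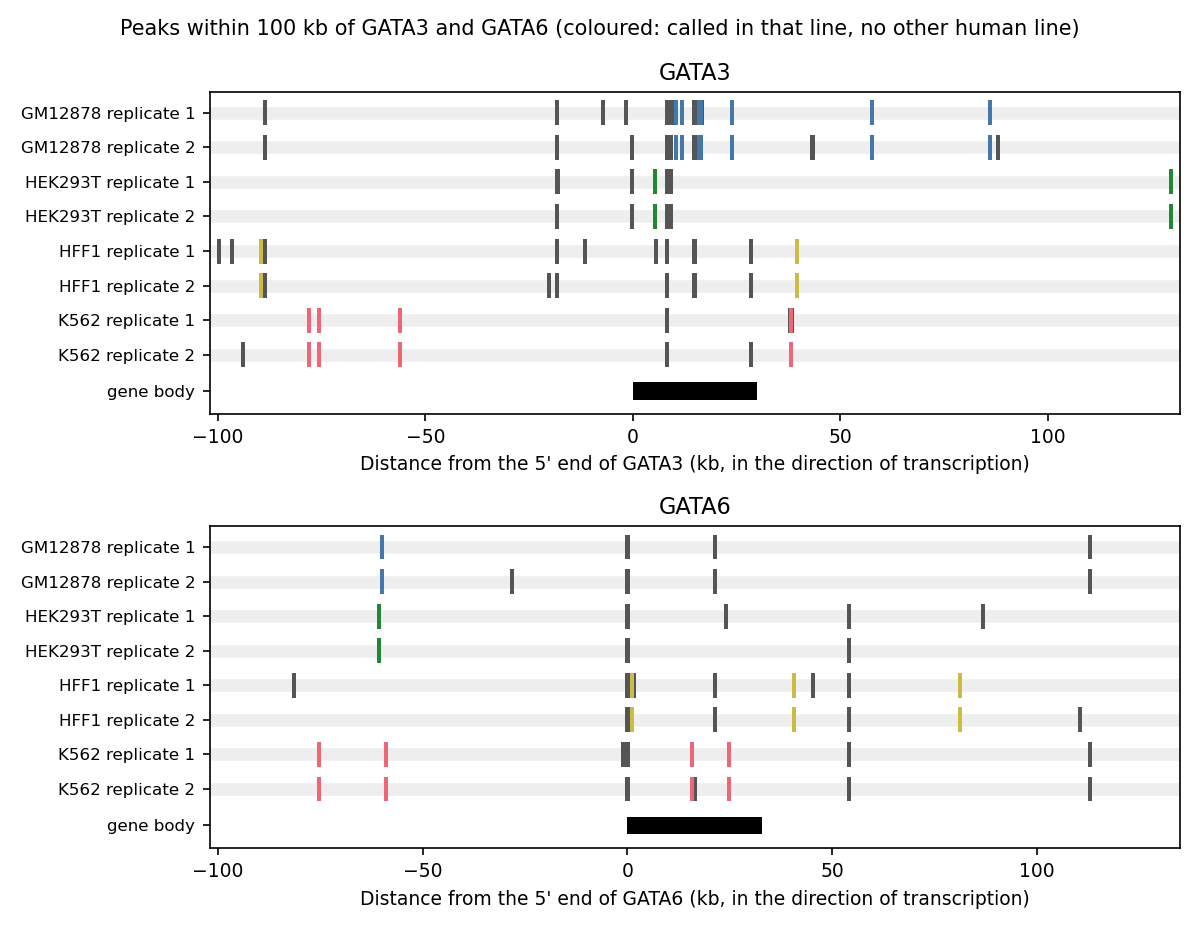
Peaks within 100 kb of GATA3 and GATA6 in the 8 human libraries, drawn by distance in kb from the 5′ end of each gene, with colours as for GATA1 and GATA2. The start region of GATA6 is marked in all 8 rows, GM12878 has 7 coloured regions around GATA3, and K562 has 4 around each gene.

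GATA4, a regulator of heart and gut development, lies at chr8:11676959-11760002 on the plus strand and has 8 start sites spread over 79534 bp. The start 27192 bp downstream of its 5′ end had a peak in GM12878, HEK293T and K562 and in neither HFF1 library. Summit reads there were 38 and 47 in HEK293T, 30 and 18 in K562 and 16 and 21 in GM12878. HEK293T replicate 1 also had a peak of 12 reads at the first start site, and replicate 2 had none there. Over the genome-wide background the highest promoter summit of each library stood at 91.3 ± 13.5 in HEK293T (SD, n = 2), 13.6 and 12.7 in K562 and 9.34 and 12.1 in GM12878. By −log10 p the strongest promoter peak ranked at percentiles 47.9 and 66.3 in HEK293T, 11.5 and 6.23 in K562 and 3.00 and 5.61 in GM12878. Read density around the start sites was above that of 73.8% and 78.1% of genes in HEK293T, 21.1% and 18.6% in K562 and 6.03% and 7.90% in GM12878. Another start, 79534 bp downstream, had peaks in K562 alone, with folds of 5.03 and 5.09, and held the highest summit of K562 replicate 2. HFF1, with no promoter peak, had 20 and 19 peaks within 100 kb of the gene, as many as K562, and 7 of its 17 called regions there had no peak in another human line, against 50.5% over the genome. At HEK293T depth 1 of these 7 was still called.

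GATA5, known from heart and gut, lies at chr20:62463497-62475995 on the minus strand and has a single annotated start site. K562 had a promoter peak in both libraries, with 37 reads at each summit and folds of 5.58 and 5.86. HEK293T replicate 1 had one with 8 reads and HFF1 replicate 1 one with 21 reads, at −log10 q of 4.43 and 4.21 where the K562 peaks had 15.6 and 16.3, and the other replicates had none. GM12878 had none. The K562 call was also made at HEK293T depth. Read density at the start was above that of 29.4% and 31.3% of genes in K562. Peaks within 100 kb numbered 23 and 19 in K562, 19 and 16 in HFF1, 16 and 12 in GM12878 and 8 and 5 in HEK293T, so the ranges of K562 and HFF1 met.

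Of 7 regions around GATA5 called in K562 alone, 4 had a GATA word at the summit, against 39.0% of all regions called in K562 alone. They lay 17173 bp downstream and 11498, 54038 and 57932 bp upstream of the 5′ end, 3 of them between genes and the last in a non-coding gene. The highest summits were those of the region 57932 bp upstream (chr20:62533761-62534093), with 59 and 52 reads, and the other 3 had 27 to 42. The regions 11498 and 57932 bp upstream were still called at HEK293T depth. Shown are the minus strands of chr20:62533824-62533924 and of chr20:62458785-62458885, the latter because its 2 GATA words overlap on opposite strands.
GATA5, 57932 bp upstream: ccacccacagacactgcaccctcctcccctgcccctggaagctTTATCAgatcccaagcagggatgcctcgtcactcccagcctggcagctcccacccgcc
GATA5, 17173 bp downstream: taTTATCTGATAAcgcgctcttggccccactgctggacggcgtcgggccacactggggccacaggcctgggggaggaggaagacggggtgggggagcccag

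GATA6, a regulator of heart and endoderm, lies at chr18:22169589-22202528 on the plus strand. Its start site had a peak in all 8 human libraries, and the height of that peak differed widely between lines. Over the genome-wide background the highest promoter summit stood at 129 and 124 in HEK293T and 29.6 and 31.5 in HFF1. It stood at 20.8 and 20.3 in K562 and 6.42 and 8.66 in GM12878. Among genes with a promoter peak, this was above 85.0% and 83.6% in HEK293T and 35.1% and 36.3% in HFF1. In K562 it was above 18.8% and 16.6%, and in GM12878 above 0.144% and 1.63%. Density around the start was 14.7 and 14.8 in HEK293T, 4.17 and 4.26 in HFF1, 2.55 and 2.49 in K562 and 1.09 and 1.07 in GM12878. No line overlapped another in either measure, and the mean density in HEK293T was 14.8 ± 0.0656 against 1.08 ± 0.00899 in GM12878 (SD, n = 2 each). The share of all genes without overlap between lines was not counted. The density differed between lines with an adjusted p of 0.0148 in the exact permutation test, as did 92.1% of 11911 genes. HEK293T thus stood above 97.6% and 97.7% of genes with a promoter peak in density, and GM12878 above 4.06% and 4.11%. The GM12878 peaks held 11 and 15 reads and were not called at HEK293T depth.

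**Figure D3:**
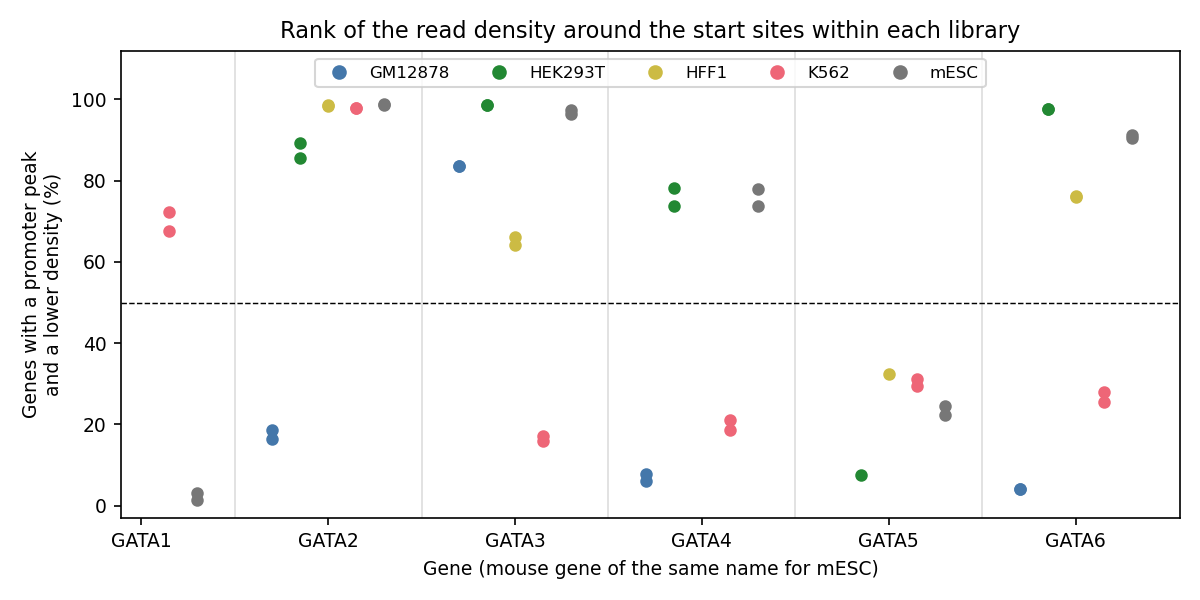
Read density around the start sites of each GATA gene, given as the percentage of genes with a promoter peak in the same library that had a lower density; each point is 1 library with a promoter peak, coloured by line, and the dashed line marks 50%. GATA6 runs from 4.06% in GM12878 to 97.7% in HEK293T, and GATA2 is low in GM12878 alone.

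Few peaks surrounded GATA6: 9 and 7 in HFF1, 8 and 8 in K562, 7 and 4 in HEK293T and 4 and 5 in GM12878. The strongest of the regions called in K562 alone at any of the 6 genes by fold were at GATA6. One lay 75347 bp upstream in a non-coding gene (chr18:22093833-22094651), with folds of 12.5 and 11.3, and the other 24725 bp downstream in an intron of GATA6 (chr18:22194095-22194533), with folds of 10.9 and 10.2. Both had a GATA word at the summit, and both were still called at HEK293T depth, while the density at the GATA6 start in K562 was above that of 28.0% and 25.6% of genes. Near the start, HFF1 alone had a further region 1029 bp downstream, with folds of 4.25 and 5.11.

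The peak number within 100 kb differed between the 4 human lines for GATA2 and GATA3 and did not pass the test for the other 4 genes, against 64.8% of 19598 genes that passed. GATA2 passed with K562 highest, as did 6.32% of genes, and GATA3 with GM12878 highest, as did 22.6%; for HFF1 the share was 35.3% and for HEK293T 0.648%. Both HFF1 libraries lay above the other 6 at 35.5% of genes and both HEK293T libraries at 0.725%, and neither was so at any of the 6 GATA genes. The test compared eta squared, the share of the variance that lies between lines, over all 105 pairings of the 8 libraries. GATA2 had an eta squared of 0.964 and an adjusted p of 0.0358 in this exact permutation test, and GATA3 0.949 and 0.0441. GATA1 had 0.953 with an adjusted p of 0.0653, GATA5 0.902 with 0.0559, GATA4 0.874 with 0.0743 and GATA6 0.731 with 0.237, in the same exact permutation test. Of the 105 pairings, 15 keep the pair of any 1 line together, so a gene for which a single line stood apart and the others did not differ would have p near 0.143. The K562 mean was highest at GATA1, with 19.0 ± 2.83 peaks against 8.50 ± 0.707 in HFF1, and at GATA2, with 23.5 ± 2.12 against 16.0 ± 2.83 (SD, n = 2 each). It was also highest at GATA5, with 21.0 ± 2.83 against 17.5 ± 2.12 in HFF1. At GATA4 and GATA6 the means of K562 and HFF1 were equal and the highest, at 19.5 and 8.00. Within 200 kb the calls for GATA2 and GATA3 were lost, with an adjusted p of 0.0574 for each in the exact permutation test. There HFF1 in place of K562 had the highest mean at GATA2. Among the 20000 strongest peaks GATA2 had 0.202 in the exact permutation test, where 0% of all genes passed. By base pairs covered in place of peak number the other 4 genes passed, with an adjusted p of 0.0179 for GATA1, 0.0271 for GATA5 and 0.0336 for GATA4 and GATA6 in the exact permutation test, as did 88.1% of all genes. Within 200 kb GATA1 passed with 0.0377 and GATA4 with 0.0263 in the exact permutation test. At −log10 q of 5 or more GATA1 and GATA5 passed with 0.0430 in the exact permutation test, as did 66.4% of all genes. Outside coding start sites GATA1 and GATA4 passed with 0.0454, and per 100000 peaks GATA1 with 0.0466, in the exact permutation test. The shares of all genes that passed within 200 kb, outside coding start sites and per 100000 peaks are not given here. With 64.8% passing in the main setting, these calls are not read as particular to the GATA genes. The calls for GATA2 and GATA3 were also lost within 50 kb, with an adjusted p of 0.0529 for each, and at HEK293T depth, with 0.0554 for each, in exact permutation tests in which 0% of all genes passed. Without K562 replicate 1 the adjusted p for GATA2 was 0.0522, and for GATA3 it was 0.0494 without HFF1 replicate 2 and 0.0551 to 0.0825 without any other single library, in the same exact permutation test over fewer libraries.

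**Figure D4:**
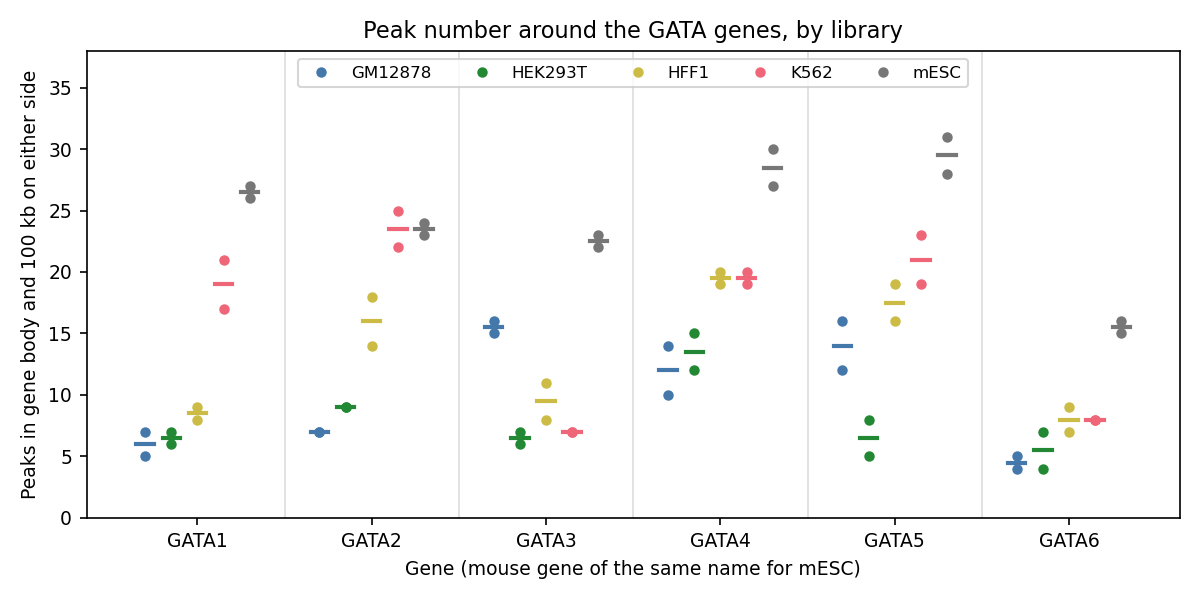
Number of peaks in the gene body and 100 kb on either side of each GATA gene; points are libraries, short bars the mean of the 2 replicates, and colours the lines. K562 points lie above those of the other human lines at GATA1 and GATA2, and GM12878 points do at GATA3.

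Over the 6 genes together, 198 human regions were found, of which 84 were called in 1 line, 18 in 2, 14 in 3 and 17 in 4, and 65 in none. K562 had 80 called regions and 35 of them, 43.8%, had no peak in another human line, against 25.4% over the genome. In GM12878 it was 10 of 50 or 20%, against 40.6%. In HFF1 it was 23 of 64 or 35.9%, against 50.5%, and in HEK293T 4 of 36 or 11.1%, against 10.8%. Without replicate 2 of the line, the count was 20 in GM12878, 12 in HEK293T and 38 in HFF1. At HEK293T depth 13 of the 35 K562 regions were still called, 6 of the 10 in GM12878 and 5 of the 23 in HFF1. The share of such regions still called over the genome was not counted. Of the 17 regions called in all 4 lines, 11 lay within 1 kb of a coding start site. None of these 17 had a GATA word at the summit, nor had any of the 14 called in 3 lines, while 20 of the 84 called in 1 line had one. Over the whole genome such words were present in 5.26% of regions called in 4 lines, 9.81% in 3 and 15.9% in 1.

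The percentage of peaks around the GATA genes with a GATA word at the summit was 17.3% and 19.6% in K562, 9.41% and 9.59% in HFF1, 9.68% and 3.57% in GM12878 and 5.66% and 2.38% in HEK293T. Both K562 libraries were above the other 6. The difference between lines did not pass the exact one-sided permutation test (eta squared 0.899, p = 0.0571), and it passed with AGATAA as the only word, with p = 0.0286 in the same exact permutation test. It also passed without GM12878 replicate 1 (exact permutation p = 0.0286) or replicate 2 (exact permutation p = 0.0190). Shares over all peaks were 18.6% and 18.2% in K562, 10.2% and 9.95% in HFF1, 11.2% and 11.3% in GM12878 and 7.91% and 7.79% in HEK293T, and in K562 the windows differed from the whole list by less than 2 percentage points. Among regions called in K562 alone it was 12 of 35, 34.3%, around the GATA genes and 39.0% over the genome. At HEK293T depth 7 of those 12 were still called. For HFF1 it was 3 of 23 and for GM12878 2 of 10, against 11.1% and 14.2% over the genome, and none of 4 in HEK293T. In mESC the share was 7.48% and 11.0% around the genes and 9.01% and 9.10% over all peaks.

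**Figure D5:**
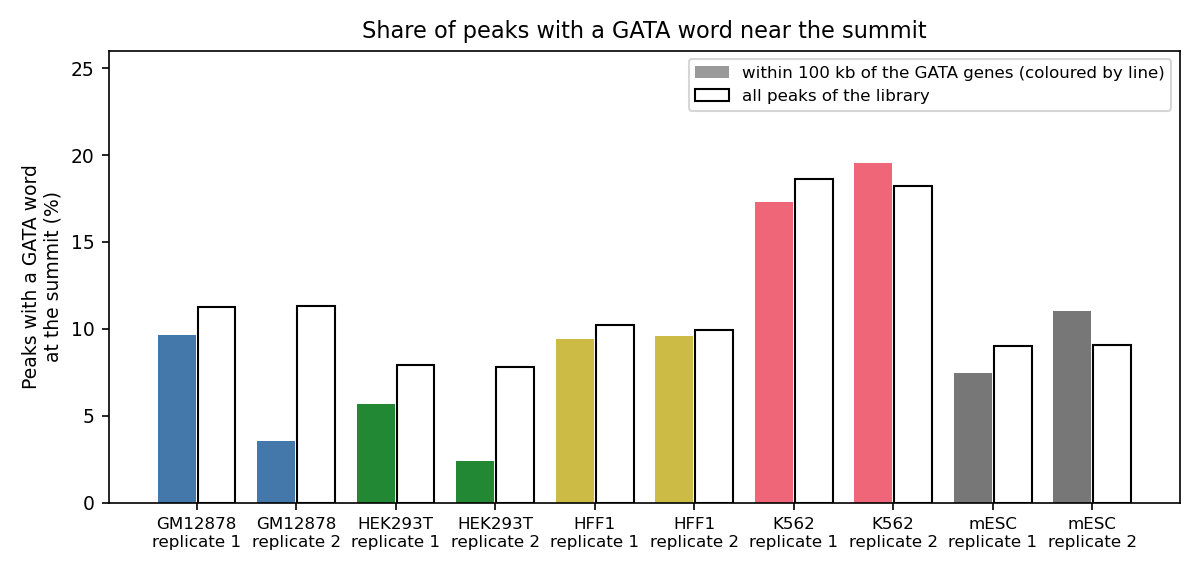
Percentage of peaks with a GATA word within 50 bases of the summit, for peaks within 100 kb of the 6 GATA genes (filled bars, coloured by line) and for all peaks of the same library (open bars). The K562 bars lie at 17.3% to 19.6% and those of all other libraries at 11.3% or less.

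In mESC, whose lists were the longest, peaks within 100 kb numbered 27 and 26 at Gata1, 24 and 23 at Gata2, 23 and 22 at Gata3, 30 and 27 at Gata4, 28 and 31 at Gata5 and 15 and 16 at Gata6. The median over all mouse genes was 23 in both libraries, so Gata6 was below it. Read density around the start sites ranked Gata2 above 98.9% and 98.8% of mouse genes with a promoter peak, Gata3 above 96.4% and 97.5%, Gata6 above 90.5% and 91.3%, and Gata4 above 73.7% and 77.9%. Gata5 stood above 24.6% and 22.3% and Gata1 above 3.13% and 1.49%. Thus the order in mESC placed Gata2, Gata3 and Gata6 on top, with replicates that did not overlap between these 3 genes. The peak of the highest fold with a GATA word was in an intron of Taf3, 46118 bp upstream of Gata3 (chr2:9935988-9936316, mm10), with folds of 10.9 and 10.3.

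Of 10 genes for partners and relatives of GATA factors, promoter peaks were called for 10 in K562, 9 in GM12878, 9 in HFF1, 8 in HEK293T and 9 in mESC. Over all protein-coding genes the shares were 70.4%, 71.9%, 76.2%, 67.8% and 73.1% in the same order. TAL1, the E-box factor that joins GATA1 in a complex with LMO2 and LDB1, was called in K562 alone among the human lines, with folds of 5.75 and 5.86. LYL1, its relative, lacked a call in HEK293T, and Lyl1 lacked one in mESC. ZFPM1, which codes for a GATA1 cofactor of the Friend of GATA family, its relative ZFPM2, LMO2, LDB1, the chromatin remodelling subunits GATAD2A and GATAD2B, GATAD1 and the atypical GATA factor TRPS1 were called in all 4 human lines. In HEK293T the highest mean promoter folds of the list were those of GATAD2A, with 15.4 and 13.9, and GATAD1, with 14.1 and 14.3.

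Genes with the promoter pattern most like each GATA gene were found by the Euclidean distance of the percentile of the strongest promoter peak over the 8 human libraries, with 0 for no peak. Nearest to GATA1 were B3GNT3, ASAH2 and FXYD4, at distances of 0.761 to 1.24, and nearest to GATA5 were TMPRSS11F, SPINK4 and again B3GNT3, at 0.992 to 1.47. All of these were called in K562 alone. For GATA2 they were EPHB4, FHL1 and PRKD1, at 10.8 to 12.7. For GATA3 they were DAPK1, SDC1 and TLE3, at 7.84 to 10.3, for GATA4 KCNA4, VSTM2A and LDOC1, at 8.54 to 14.1, and for GATA6 EGFLAM, SNAI2 and PCDH10, at 10.3 to 13.3. All these genes were picked for likeness of pattern, so a shared pattern is no separate result. EGFLAM, SNAI2 and PCDH10 all had the order of lines of GATA6 by mean percentile. SNAI2 had percentiles of 67.7 and 57.0 in HEK293T, 28.0 and 27.2 in HFF1, 19.0 and 10.4 in K562 and 7.08 and 9.27 in GM12878. Those of GATA6 were 63.5 and 60.7, 26.9 and 27.5, 18.3 and 16.4, and 0.451 and 3.13.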

How the data were processed

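Each of 10 bulk ATAC-seq libraries had a deposited peak list. Per the submitters' processing notes, cutadapt 3.2, Bowtie2 2.4.2, Picard and MACS2 2.2.7.1 were used with builds hg38 and mm10; their settings are not given in the sources used here. The deposited values are a score, a fold (ratio of summit to local background), −log10 p and −log10 q for each peak, made by the authors per library. The score was not used. Where the other deposited values of different lists stand side by side, they were not adjusted for depth. The fold and −log10 p were solved for the reads at the summit and the local background; whole-number reads solved 100% of peaks, and the 1% quantile of the background is the genome-wide background. PCR reads are not independent molecules, and no counting interval was computed. No peak passed a chromosome end of the builds. GATA4 and GATA6 regions are given without sequence. Groups follow the labels. Regions merge human peaks that overlap by 1 bp, and calls in a line needed a peak in each replicate. Eta squared was tested over 105 pairings of 8 libraries (exact, one-sided; smallest p 0.00952; 2 libraries against 2 cannot go below 0.333) with Benjamini-Hochberg adjustment over genes with a mean of 1 or more peaks. The test was checked on simulated counts. The line effects planted there were larger than the differences at the GATA genes, so its power at those was not checked. RefSeq promoters were matched for 4 of the 6 human genes. Genes named are the 6 members, a list of 10 partners, the 3 genes nearest in pattern to each member, marker genes of the lines, and genes that hold or adjoin a described peak, named for position only. Members and lists were chosen with earlier results of these data known; read density, depth scaling and the E-box search were added after the data were seen. Depth scaling multiplied reads and background down to the HEK293T level and kept peaks above the lowest HEK293T −log10 p. Python 3.11.15, numpy 2.4.6, pandas 2.3.3, scipy 1.17.1 and pysam 0.24.0 were used.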

Additional observations from a re-analysis of the deposited data

How the results depend on the processing

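Promoter calls in human lines, 17 in the report, fell to 7 with the start of the gene record alone and to 2 among the 20000 strongest peaks, and the mouse count from 6 to 1 among those peaks; they ran from 17 to 18 without single libraries in human and from 6 to 6 in mouse. For the peak number, the following adjusted p come from the exact permutation test. GATA1 passed at −log10 q of 5 or more with 0.0430, within 200 kb with 0.0377, by base pairs covered with 0.0179, per 100000 peaks with 0.0466 and outside coding start sites with 0.0454. GATA2 was lost among the 20000 strongest peaks with 0.202 and within 50 kb with 0.0529, and within 200 kb HFF1 had the highest mean with 0.0574. GATA3 was lost within 50 kb with 0.0529 and within 200 kb with 0.0574. GATA4 passed within 200 kb with 0.0263, by base pairs with 0.0336 and outside coding start sites with 0.0454, there with K562 highest; GATA5 at −log10 q of 5 or more with 0.0430 and by base pairs with 0.0271; GATA6 by base pairs with 0.0336, with K562 highest. At HEK293T depth GATA2 and GATA3 had an adjusted p of 0.0554 in the exact permutation test. Of all genes, 66.4% passed at −log10 q of 5 or more, and 0% passed among the 20000 strongest peaks and within 50 kb. The shares within 200 kb, per 100000 peaks and outside coding start sites are not given here. In the main setting 64.8% passed. Without single libraries the adjusted p ran from 0.0553 to 0.114 for GATA1, 0.0396 to 0.0522 for GATA2, 0.0494 to 0.0825 for GATA3, 0.0825 to 0.115 for GATA4, 0.0551 to 0.145 for GATA5 and 0.127 to 0.332 for GATA6; GATA2 was lost without K562 replicate 1, with 0.0522, and GATA3 without any 1 library except HFF1 replicate 2.

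With the replicate block, the adjusted p was 0.113 for the peak number of GATA2 and GATA3, and for read density 0.0896 at GATA2 and 0.0577 at GATA3 and GATA6; the block allows 24 matchings, and no gene of the table passed under it for the peak number. The labels do not say whether numbers 1 and 2 mark a batch shared by lines. Deviations of same-numbered libraries correlated between −0.00829 and 0.0279 over the 6 pairs of lines. They were taken after dividing each library by its total, so a shift common to all genes could not be seen. Read density without single libraries gave 0.0146 to 0.0347 for GATA2 and 0.0146 to 0.0181 for GATA3 and GATA6; among the 20000 strongest peaks the density could not be had for these 3 genes, nor for GATA6 at −log10 q of 5 or more, because not all 8 libraries kept a promoter peak.

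Regions called in 1 line alone numbered 2, 2, 0 and 8 in GM12878, HEK293T, HFF1 and K562 among the 20000 strongest peaks, and at HEK293T depth 7 in HEK293T, 8 in HFF1 and 14 in K562. Without single libraries they ran from 10 to 20 in GM12878, 4 to 12 in HEK293T, 23 to 38 in HFF1 and 35 to 52 in K562. The GATA word share had p = 0.0476 with a wider window and 0.0286 with AGATAA alone, and 0.0190 to 0.0857 without single libraries, in exact permutation tests. HEK293T depth limits every count set beside that line: a weak peak missing from its lists may have been below its threshold.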
